A study of Rattus norvegicus with 24 samples.

Results

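The genes that write, erase and read DNA methylation were followed in rat lung after inhalation of hexanal, an aldehyde of indoor air. 9 genes were listed by name, namely the writers Dnmt1, Dnmt3a and Dnmt3b, Uhrf1 as the guide of Dnmt1, the erasers Tet1, Tet2 and Tet3, and the readers Mbd2 and Mbd4. 4 of the 9 were matched to a probe through the accession given for that probe, out of 15443 gene symbols matched in all. These were Dnmt1, Dnmt3a, Tet3 and Mbd2, each with 1 probe. Dnmt3b, Uhrf1, Tet1, Tet2 and Mbd4 were not analysed here.

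DNA methylation is the addition of a methyl group to cytosine, in mammals mostly where a guanine follows (CpG). Maintenance methyltransferase (Dnmt1, guided by Uhrf1) copies the mark to the new strand after replication, while Dnmt3a and Dnmt3b place it on unmarked DNA. The TET enzymes oxidize methylcytosine, which starts its removal, and Mbd2 binds methylated CpG and recruits the NuRD complex, a chromatin remodeler and histone deacetylase that is linked to gene silencing.

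One-colour Agilent arrays were hybridized with whole lung RNA from 24 Fischer-344 rats, 1 rat to an array. Rats of both sexes aged 7 to 8 weeks inhaled filtered clean air (control) or hexanal at 600 ppm (low dose), 1000 ppm (middle dose) or 1500 ppm (high dose) for 4 h a day on 5 days a week. Each group held 6 rats, 3 males and 3 females, and the lung was not sorted into cell types. The sample labels name the doses in ppm, whereas the treatment protocol in the same labels gives the same figures in mg/m3 and 5 weeks of exposure, and the methods of the study give a shorter period. The question was whether the transcripts of the methylation machinery changed with the dose, since the study relates hexanal to DNA methylation. The methylation state itself was not analysed here.

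The values below are log2 signals minus the 75th percentile of the same array, so that 0 is the 75th percentile and a difference of 1 is a 2-fold change. The 75th percentile lay between 1700.86 and 3132.89 signal units. The lowest was that of the high-dose female rat 36, and the next lowest was 2316.65. Between 70.7% and 81.7% of probes were well above background on an array, and none was saturated. All 8 lung markers, among them the surfactant gene Sftpc and the club cell gene Scgb1a1, were well above background in all 24 rats. There were 6 slides with 4 arrays on each, and a slide held 1 sex and 2 neighbouring doses. In a whole tissue, fewer cells of a type and less RNA per cell cannot be told apart.

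The stretch before the start site is given for Dnmt3a and for 2 of the 4 listed starts of Tet3, because CpG in such stretches is what these enzymes act on and the 2 Tet3 starts differ in it. The sequences are the 250 bases upstream of a RefSeq transcript start on the rat assembly GRCr8, read 5′ to 3′ along the gene, with CpG in capitals. Dnmt3a lies on the plus strand (chr6:32598352-32598601). Tet3 lies on the minus strand (start 1, chr4:117525496-117525745, and start 3, chr4:117521046-117521295).
Dnmt3a: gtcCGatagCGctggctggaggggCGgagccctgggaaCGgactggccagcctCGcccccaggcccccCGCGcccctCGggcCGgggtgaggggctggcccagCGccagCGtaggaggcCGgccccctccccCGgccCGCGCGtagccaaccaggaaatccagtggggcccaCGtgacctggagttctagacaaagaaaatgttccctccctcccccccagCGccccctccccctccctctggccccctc
Tet3 start 1: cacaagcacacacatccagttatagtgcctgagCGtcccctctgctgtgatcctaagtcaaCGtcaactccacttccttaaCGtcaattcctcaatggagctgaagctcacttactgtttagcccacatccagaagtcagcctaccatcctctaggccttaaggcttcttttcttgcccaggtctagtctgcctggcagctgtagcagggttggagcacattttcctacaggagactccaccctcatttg
Tet3 start 3: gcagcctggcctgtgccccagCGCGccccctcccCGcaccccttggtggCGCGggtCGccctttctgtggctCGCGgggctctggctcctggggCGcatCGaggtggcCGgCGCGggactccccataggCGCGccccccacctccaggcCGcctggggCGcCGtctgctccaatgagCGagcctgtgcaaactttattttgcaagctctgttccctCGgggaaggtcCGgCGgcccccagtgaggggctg
The Dnmt3a stretch held 18 CpG and was 74.0% G or C. Tet3 start 1 held 3 CpG at 50.4% G or C and start 3 held 22 CpG at 72.4%. Mbd2 and Dnmt1, whose sequences are not shown, held 33 and 9 CpG. Over all 33469 stretches of the same length the median was 5 CpG. The letters GGGCGG, the core of the GC box, were searched on both strands. They occurred 1 time before Dnmt3a, 4 times before Mbd2, and in neither of the Tet3 stretches shown nor before Dnmt1, against 30.5% of all stretches with at least 1 match. A match of letters is a description of the sequence only.

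Dnmt1, the maintenance writer, was not measured above background. Its probe was not well above background on any of the 24 arrays, with signals from 3.68 to 22.7 units and a median of 6.12. The lowest signal among probes well above background was between 17.0 and 46.0 units, depending on the array. The male high-dose rats 16 and 17 had the highest Dnmt1 signals, 22.7 and 16.2 units. Since all groups lay at background, no fold change or test is given for Dnmt1. With 1 probe, a low level of Dnmt1 RNA and a probe that does not detect it cannot be told apart.

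Dnmt3a, the de novo writer, was lower in most exposed rats than in most controls, by amounts that did not pass the test in the fit across all genes. It was well above background on all 24 arrays, at 348 to 574 signal units. In control rats its level on the log2 scale was between -2.70 and -2.43, with a median of -2.53. In the low-dose group it was between -2.95 and -2.60 with a median of -2.73, and in the middle-dose group between -2.96 and -2.45 with a median of -2.82. The high-dose group spread most widely, from -2.88 to -1.89, with a median of -2.73. At each dose 4 of 6 exposed rats lay below all 6 controls, whereas at the high dose the other 2 lay above all 6 controls. The exposed and control rats overlapped at every dose.

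The means were -2.55 ± 0.11 in controls (SD, n = 6), -2.76 ± 0.16 at the low dose, -2.75 ± 0.21 at the middle dose and -2.56 ± 0.38 at the high dose. The low-dose difference was -0.21 on the log2 scale (SE 0.134), or 1.16-fold lower, with an adjusted p of 0.997 by limma with Benjamini-Hochberg adjustment over all 21255 genes and unnamed probes tested. The middle-dose difference was -0.20 (1.15-fold lower, adjusted p = 0.674 by limma) and the high-dose difference was -0.0079 (adjusted p = 0.994). An exact two-sided permutation test of 6 rats against 6 gave p = 0.026 at the low dose, p = 0.0714 at the middle dose and p = 0.968 at the high dose, where the smallest possible p is 0.00216. These are 3 of the 18 such tests made over 3 genes and all pairs of groups, and the p-values are not adjusted. The limma test uses 1 spread for all 4 groups, the high-dose group included, and the exact test uses only the 12 rats compared. Neither test takes the slides into account. All 6 controls were on slides 1 and 2, and of the low-dose rats only rats 6 and 26 shared those slides. With slide as a random block, the correlation within a slide was 0.287 over all genes.

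**Figure D1:**
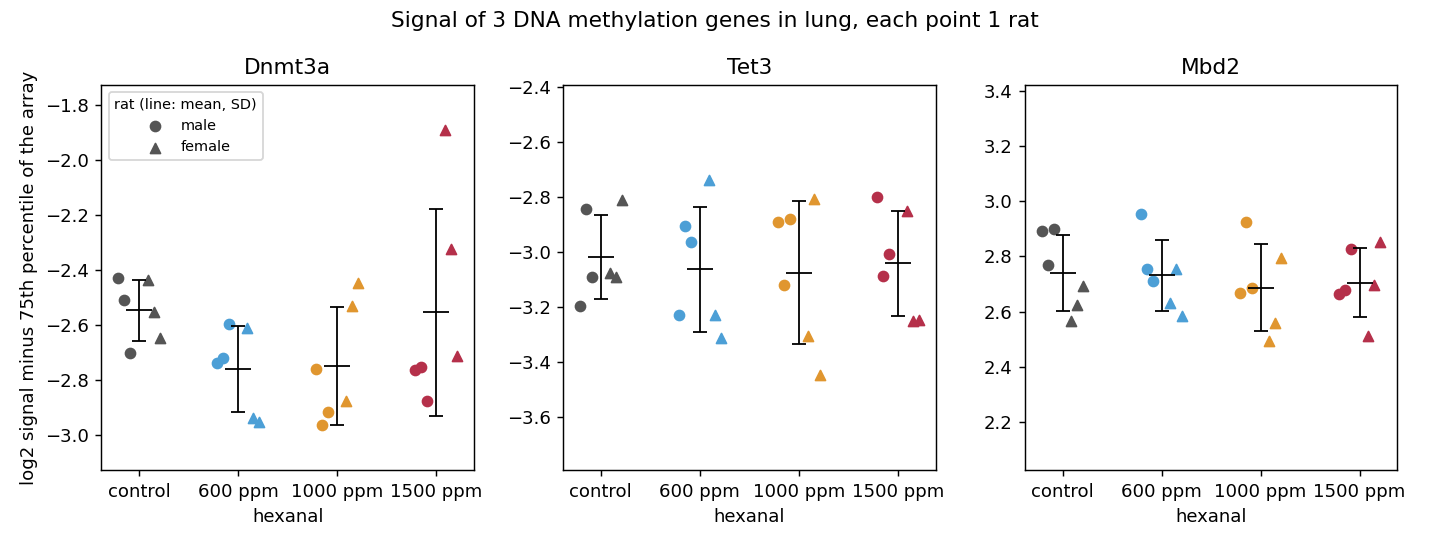
Level of Dnmt3a, Tet3 and Mbd2 in each of the 24 rats (y axis, log2 signal minus the 75th percentile of the array) by hexanal dose (x axis), with circles for males, triangles for females, and bars for the mean and SD of 6 rats. Dnmt3a spreads from -2.88 to -1.89 at the high dose, whereas the group means of Tet3 and Mbd2 lie within 0.06 of control.

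The 2 high Dnmt3a values at 1500 ppm were those of the female rats 36 (-1.89) and 37 (-2.33). Among high-dose males the level was between -2.88 and -2.75, with a mean of -2.80 ± 0.07 (SD, n = 3), against -2.55 ± 0.14 in control males. High-dose females had a mean of -2.31 ± 0.41, against -2.55 ± 0.11 in control females. The dose effect in females minus that in males was thus 0.49 (SE 0.223) with an adjusted p of 0.228 by limma, which did not pass the threshold of 0.05, a threshold passed at this dose by 5.02% of all genes. Without rat 36 the difference was 0.28 (adjusted p = 0.452 by limma). Rat 36 was the rat with the lowest 75th percentile, and before scaling its Dnmt3a signal of 458 units was below the 574 units of the middle-dose rat 33. Rat 36 also had the highest mean level of 10 proliferation markers of all 24 rats, -1.39 against a range from -2.44 to -1.99 in the other 5 high-dose rats. The part of either in the Dnmt3a value was not tested. At the other 2 doses the sexes differed in their Dnmt3a effect by -0.15 and 0.26 (adjusted p = 0.985 and 0.754 by limma), with 0% of all genes passing there.

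Tet3, the eraser with a probe, had group means within 0.06 of control on the log2 scale at every dose. It was well above background on all 24 arrays, at 236 to 395 signal units. Its log2 level was between -3.19 and -2.81 in controls, with a median of -3.08. It was between -3.31 and -2.74 at the low dose (median -3.10), between -3.45 and -2.81 at the middle dose (median -3.01) and between -3.25 and -2.80 at the high dose (median -3.05). Each range covered the control median, and at each dose 3 of 6 exposed rats lay above it and 3 below. The group means differed from control (-3.02 ± 0.15, SD, n = 6) by -0.045, -0.058 and -0.023 at the low, middle and high dose, each with an SE of 0.121. The adjusted p-values by limma were 0.997, 0.915 and 0.98 and the p-values of the exact permutation test were 0.684, 0.63 and 0.84.

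Mbd2, the reader that links methylated CpG to NuRD, had the smallest spread of the 3. Its probe was bright, with 9684 to 23416 signal units. The log2 level was between 2.57 and 2.90 in controls (median 2.73), between 2.58 and 2.95 at the low dose (median 2.73), between 2.49 and 2.93 at the middle dose (median 2.68) and between 2.51 and 2.85 at the high dose (median 2.69). The exposed and control ranges were thus nearly the same. From the control mean of 2.74 ± 0.14 (SD, n = 6) the low, middle and high dose differed by -0.0090, -0.054 and -0.036, each with an SE of 0.0828. The adjusted p-values by limma were 0.999, 0.875 and 0.953 and the p-values of the exact permutation test were 0.937, 0.532 and 0.639. After the dose and sex means were removed, the SD of Mbd2 was 0.122, with 22.1% of all genes below it, while that of Dnmt3a was 0.197 (49.2% of genes below) and that of Tet3 was 0.221 (56.3% below).

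0 of the 3 measured genes were called at any dose, where a call is a fold change of at least 1.5 with an unadjusted limma p under 0.05. The fold and p thresholds are those of the study, which applied them with another test. Over all genes 0.616% were called at the low dose, 1.64% at the middle dose and 1.22% at the high dose. At an unadjusted p under 0.05 without the fold, 0 of the 3 passed by limma at any dose with the sexes together, against 4.33%, 8.99% and 6.97% of all genes. With other settings Dnmt3a did pass this looser threshold, at the middle dose with normexp background correction (-0.38, adjusted p = 0.436 by limma) and with array weights (-0.23), and at the low dose with array weights (-0.26), with the methods' test, with only the control and low-dose arrays in the fit, and without the high-dose rat 36 (-0.21 in each of these 3). With the sexes apart, Dnmt3a also passed it in middle-dose males (-0.33, adjusted p = 0.43 by limma), where 11.6% of all genes had a p as small or smaller. So did the difference between the sexes in its high-dose effect (0.49), where 18.6% of all genes had a p as small or smaller. At an adjusted p under 0.05 with the sexes together, 0 passed, against 0%, 0.0188% and 0.0047%. The 6 exposed rats lay all above or all below the 6 controls for 0 of the 3 genes, against 0.278%, 0.456% and 0.48% of all genes. All 9 of the 95% intervals of the differences from control in this fit lay between -0.49 and 0.27 on the log2 scale, within the 1.5-fold threshold in either direction. With normexp, the intervals of Dnmt3a (-0.30 and -0.38, SE 0.176) and Tet3 (-0.18 and -0.27, SE 0.216) at the low and middle dose reached beyond that threshold. No difference between 2 exposed groups was called for any of the 3 genes, against 0.63% of all genes from the low to the middle dose, 1.16% from the low to the high dose and 0.522% from the middle to the high dose. Over the 18 comparisons of 2 groups made for the 3 genes, the smallest adjusted p was 0.674 by limma. No slope on dose passed an adjusted p of 0.05 (adjusted p = 0.98 for Dnmt3a, 0.961 for Tet3 and 0.893 for Mbd2 by limma), with 0.0141% of all genes passing.

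**Figure D2:**
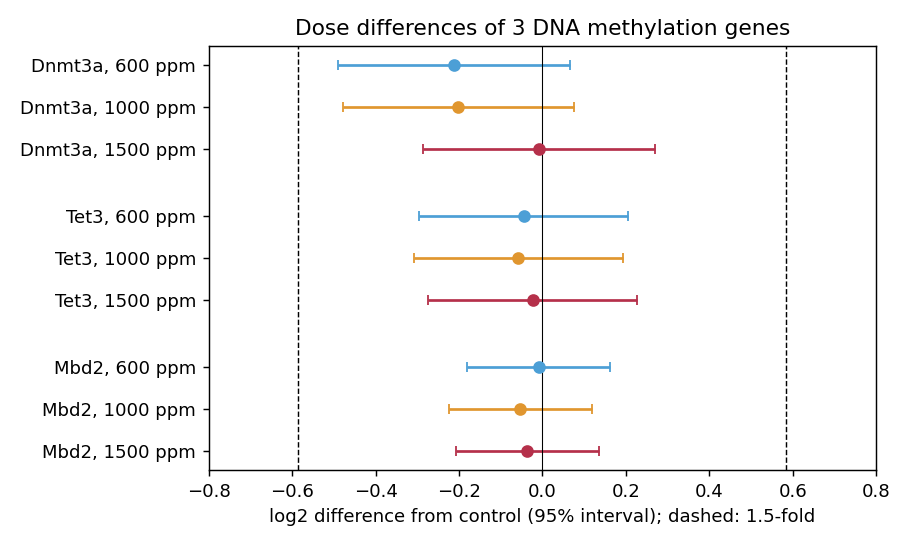
Difference from control (x axis, log2) for Dnmt3a, Tet3 and Mbd2 at each dose (y axis), as points with 95% intervals from limma over 24 arrays and dashed lines at 1.5-fold. All 9 intervals cross 0 and stay inside the dashed lines.

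Between the sexes, averaged over the doses, Mbd2 was lower in females by 0.14 on the log2 scale (SE 0.0519), with an adjusted p of 0.0544 by limma, just over the threshold. In control rats the 3 females (2.57 to 2.69) lay below the 3 males (2.77 to 2.90), and at the high dose the sexes overlapped. Dnmt3a was 0.15 higher in females (adjusted p = 0.168) and Tet3 differed by -0.10, female minus male (adjusted p = 0.44 by limma). Of all genes, 26.5% passed this comparison. Because each slide held 1 sex, sex and slide cannot be told apart here.

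Slides could also bear on the doses, since each slide held 2 neighbouring doses. No slide held a control together with a middle-dose or high-dose rat, so the differences of these doses from control lie wholly between slides. With slide as a block, these differences rest on a chain of slides linked through the doses they share. Within the slides that held control and low-dose rats, Dnmt3a differed by -0.19 in males (slide 1, 3 controls and 1 exposed rat) and by -0.06 in females (slide 2, likewise). From the low to the middle dose it differed by -0.20 in males (slide 3) and by 0.24 in females (slide 4), which are opposite directions. From the middle to the high dose it differed by 0.12 (slide 5) and 0.14 (slide 6). Tet3 also differed in direction between the sexes within slides, by -0.19 and 0.25 from control to the low dose, by -0.07 and 0.21 from the low to the middle dose and by -0.09 and 0.33 from the middle to the high dose, males first. For Mbd2 all 6 differences within slides were between -0.14 and 0.10. With slide as a fixed block, the low-dose difference of Dnmt3a was -0.13 (adjusted p = 0.967) and the middle-dose difference -0.11 (adjusted p = 0.999) by limma.

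**Figure D3:**
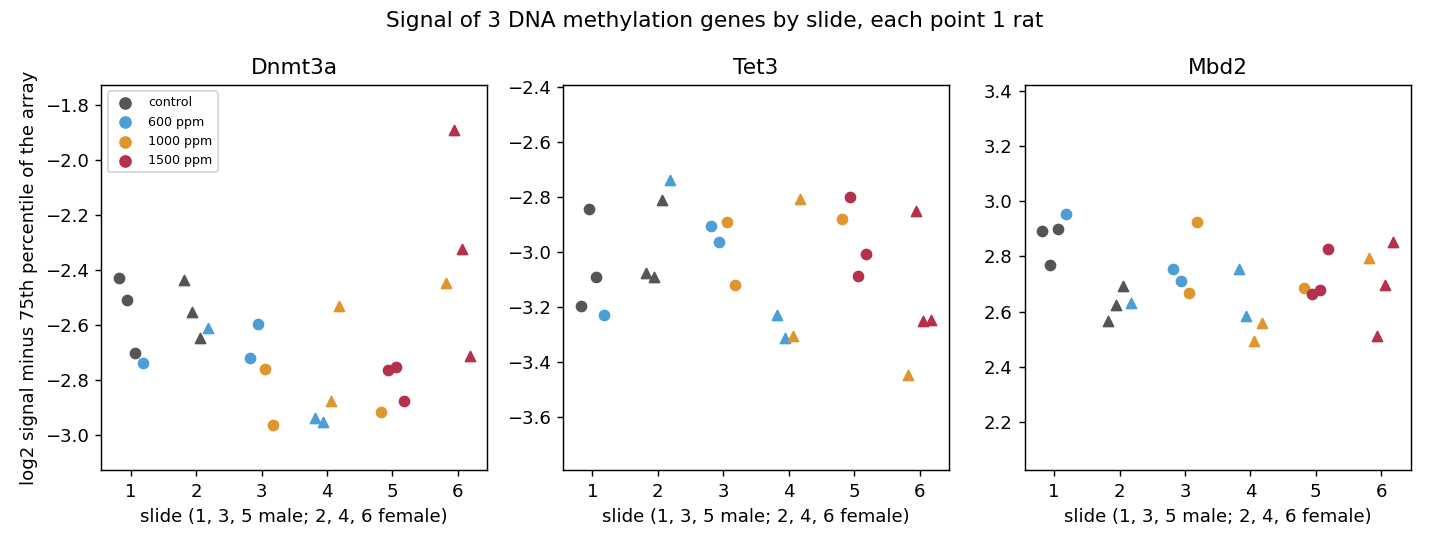
Level of Dnmt3a, Tet3 and Mbd2 in each rat (y axis, log2 signal minus the 75th percentile of the array) by slide (x axis, slides 1, 3 and 5 male and 2, 4 and 6 female), colored by dose. Slide 6 holds the 2 highest Dnmt3a values, both of high-dose females.

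The 3 genes varied with different genes from rat to rat. The correlations that follow are descriptions over 24 rats, taken on what remained after the 8 dose-by-sex means were removed, and they share arrays, slides and scaling. Dnmt3a and Tet3 had r = 0.446, Dnmt3a and Mbd2 r = -0.416, and Tet3 and Mbd2 r = -0.531. Of 12411 genes with a symbol, the most alike to Dnmt3a were Kif2c, a kinesin of mitosis (r = 0.861), and Grhpr, an enzyme of glyoxylate metabolism (r = 0.819). Those most alike to Tet3 were Gatad2b, a subunit of NuRD (r = 0.941), and Pcnx1 (r = 0.940). Those most alike to Mbd2 were Twf1, an actin-binding protein (r = 0.885), and Fut8, which adds fucose to glycoproteins (r = 0.882).

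Levels of markers of other cells also varied among the rats. All 6 tested lymphocyte markers were lower than in controls at the low dose (median -0.36), and 4 of 6 were higher at the middle and high dose. 0 lymphocyte markers were called at any dose. The list for myeloid cells had 7 tested genes. It also held Ly6g6c, no established marker of such cells (0.067, 0.31 and 0.011 at the low, middle and high dose). All 7 genes of the list were higher at the low dose (median 0.23), 4 at the middle and 3 at the high dose. 1 of them, S100a8, was called at the middle dose (0.71). All 5 tested erythroid markers were lower at the middle and high dose (medians -0.034 and -0.18), and 2 of 5 at the low dose. 1 of them, Alas2, was called at the high dose (-0.81). Over all genes 0.616%, 1.64% and 1.22% were called at the low, middle and high dose. After the dose-by-sex means were removed, the mean of 10 proliferation markers correlated with Dnmt3a (r = 0.666) and with Mbd2 (r = -0.562) over the 24 rats. The high-dose rat 36 had the highest level both of Dnmt3a and of these markers. 8 of these 10 markers were lower than in controls at the low dose, 7 at the middle dose and 8 at the high dose, with 0 called and medians of -0.08, -0.13 and -0.20. Their mean level ranged from -1.99 to -1.63 in controls, from -2.14 to -1.70 at the low dose, from -2.21 to -1.77 at the middle dose and from -2.44 to -1.39 at the high dose. With the same means removed, Tet3 correlated with the mean of 8 lung markers (r = 0.780) and of 5 erythroid markers (r = 0.670). For the other lists its r was -0.530 (9 heart muscle markers), -0.471 (6 lymphocyte markers), 0.420 (10 proliferation markers) and -0.113 (7 genes of the myeloid list). The 9 heart muscle markers that were tested were all higher at every dose, with 5 called at the middle dose, against 1.64% of all genes. 1 of these 5, Mybpc3, passed the filter on dim probes only through the middle-dose group, where it was high. The mean level of the 9 heart muscle markers ranged from -3.50 to 1.00 in controls and from -3.34 to 1.65 at the low dose. It ranged from -1.43 to 2.70 at the middle dose and from -3.48 to 2.65 at the high dose. Nppa, an atrial gene, was well above background on 5 of 24 arrays. The part of these cells in the levels of Dnmt3a, Tet3 and Mbd2 was not tested.

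The partners of the methylation machinery were taken from 6 lists of 75 genes in all, of which 67 had a probe and 65 were tested. Chaf1a, Ehmt1, Lig3, Mbd5, Zbtb4, Chd4, Mta3 and Shmt1 were not analysed here, and Neil2 and Hdac2 did not pass the filter on dim probes. 1 of the 65 was called at the low dose and 0 at the middle and high dose, against 0.616%, 1.64% and 1.22% of all genes. The 1 call was Zbtb33, which passed the filter on dim probes only through the control group. 0 of the 65 had an adjusted p under 0.05 at any dose by limma. Without the fold, 0 were higher and 6 lower at an unadjusted p under 0.05 at the low dose, 3 higher and 6 lower at the middle dose, and 3 higher and 6 lower at the high dose. Over all genes 4.33%, 8.99% and 6.97% passed this threshold, with 398 higher and 522 lower at the low dose, 1135 and 775 at the middle dose and 830 and 651 at the high dose. The median differences of the 65 were -0.00, -0.01 and -0.01, against -0.00, 0.00 and 0.01 over all genes.

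**Figure D4:**
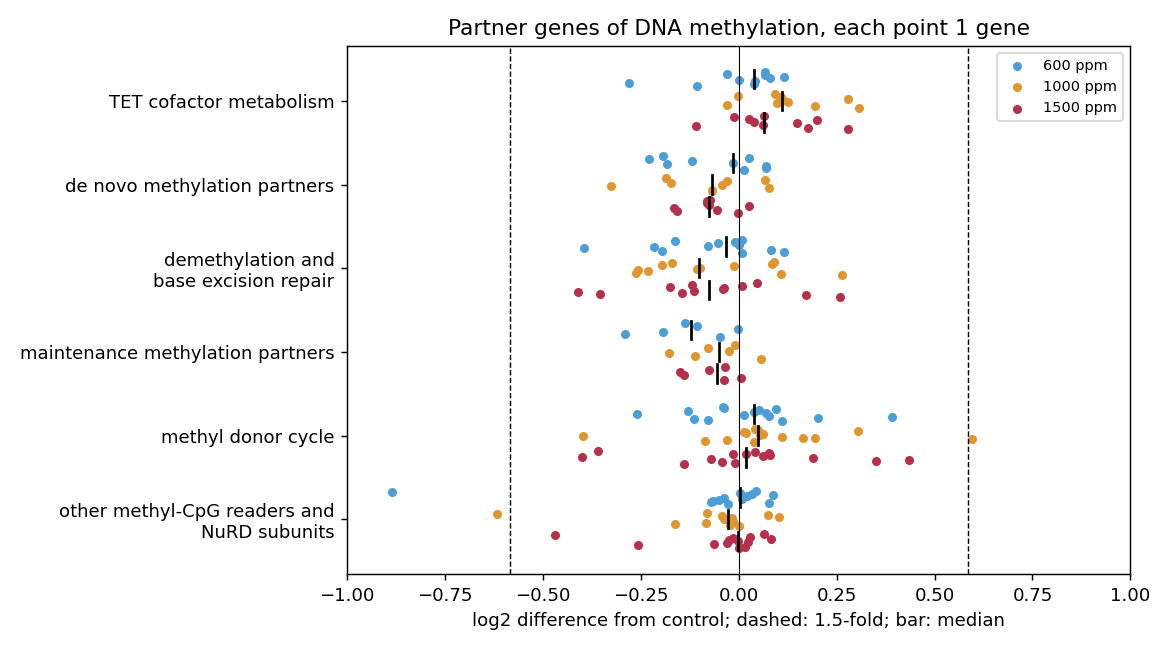
Difference from control (x axis, log2) of each of the 65 tested partner genes, 1 point a gene, in 6 lists (y axis) and at 3 doses (colors), with a bar at the median of each list and dashed lines at 1.5-fold. The 1 gene beyond the lines at the low dose is Zbtb33, which passed the filter on dim probes only through the control group, and 0 lie beyond them at the high dose. At the middle dose 2 genes lie beyond them, Zbtb33 and Cbs (0.59), both with an unadjusted p over 0.05.

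Among the 6 tested partners of maintenance methylation, all 6 were lower at the low dose and 5 of 6 at the other doses, with medians of -0.12, -0.05 and -0.06, and 0 called. Lig1, the ligase that joins the new strand, differed from control by -0.19, -0.18 and -0.14 at the low, middle and high dose (adjusted p = 0.997, 0.543 and 0.769 by limma), and by -0.22, -0.25 and -0.28 with slide as a fixed block. Pcna, the sliding clamp of replication, differed by -0.0024, -0.024 and -0.15 (adjusted p = 0.7 at the high dose by limma), and by -0.050, -0.14 and -0.36 with slide as a block. Among the 9 tested partners of de novo methylation, medians were -0.01, -0.07 and -0.07, with 0 called. Ezh2, the histone methyltransferase of the Polycomb complex, differed by -0.18, -0.33 and -0.17 (adjusted p = 0.515 at the middle dose by limma), and by -0.22, -0.32 and -0.040 with slide as a block. Suv39h1, which methylates histone H3 in heterochromatin, differed by -0.23 at the low dose (adjusted p = 0.997) and by -0.031 and -0.081 at the others, and with slide as a block by -0.19, 0.011 and -0.059. Its other 2 probes differed by -0.57 and -0.65 at the low dose. They were well above background on 23 and 13 of the 24 arrays. The dimmer probe, at -0.65, met the rule for a call when taken by itself in a fit without the filter on dim probes. It differed by -0.22 and -0.12 at the middle and high dose.

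On the side of removal, 12 genes of demethylation and base excision repair were tested, with medians of -0.03, -0.10 and -0.08 and 0 called. Gadd45a, a stress-induced gene linked to demethylation by repair, was between 0.62 and 1.16 in controls and between 0.27 and 0.81 at the high dose, and the groups overlapped. It differed by -0.20, -0.26 and -0.35 at the 3 doses, with an adjusted p of 0.553 at the high dose by limma. With slide as a block it differed by -0.22, -0.32 and -0.44. Its relative Gadd45g differed by -0.40, -0.26 and -0.41 (adjusted p = 0.581 at the high dose by limma), and by -0.39, -0.29 and -0.54 with slide as a block. TET enzymes need 2-oxoglutarate. The list for that cofactor's metabolism, which also held Cxxc4 and Cxxc5, no enzymes of it, had 10 tested genes. Their medians were 0.04, 0.11 and 0.06 at the 3 doses, with 0 called. Idh3a, a mitochondrial dehydrogenase that makes 2-oxoglutarate, differed by 0.12, 0.28 and 0.20 (adjusted p = 0.515 at the middle dose by limma), and by 0.065, 0.15 and -0.036 with slide as a block, where the high-dose direction turned. Ogdh, a subunit of the dehydrogenase that uses 2-oxoglutarate, differed by 0.066, 0.11 and 0.026 (adjusted p = 0.585 at the middle dose by limma), and by 0.030, 0.059 and -0.012 with slide as a block.

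Among 13 tested other readers and NuRD subunits, medians were 0.00, -0.03 and -0.00. Zbtb33, also called Kaiso, a zinc finger reader of methylated DNA, was called at the low dose. It was between -6.43 and -4.06 in controls and between -7.29 and -5.65 at the low dose, and the groups overlapped. Its probe was dim, well above background on all 6 control arrays but on 1 of 6 low-dose arrays and on 4 arrays of each other dose. Because it passed the filter only through the control group, its difference is given only as points in the figures. It was not called with slide as a block. At the middle dose its mean level rests on 5 arrays, because 1 spot was marked as an outlier. Hdac1, a deacetylase of NuRD, differed by -0.070, -0.16 and -0.26 (adjusted p = 0.717 at the high dose by limma), and by -0.21, -0.26 and -0.15 with slide as a block. Its other 2 probes differed by -0.15, -0.23 and -0.19 and by 0.014, -0.059 and -0.014 at the 3 doses.

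Among 15 tested genes of the methyl donor cycle, medians were 0.04, 0.05 and 0.02, with 0 called. Tyms, which uses a folate methylene group to make thymidylate, had the smallest p of the 65 genes. It was between -3.02 and -2.50 in controls and between -3.24 and -2.95 at the high dose, so that the groups overlapped. The high-dose difference was -0.36 (SE 0.0942, adjusted p = 0.31 by limma), which is 1.28-fold and below the fold of a call, and it was -0.22 with slide as a block. Tyms is also a gene of proliferating cells, whose markers had a median of -0.20 at this dose, and the part of such cells in its value was not tested. Mat2a, which makes the methyl donor S-adenosylmethionine, differed by -0.26, -0.40 and -0.40 (adjusted p = 0.997, 0.515 and 0.672 by limma). With slide as a block it differed by -0.31, -0.44 and -0.38. Its other probe differed by 0.0037, -0.25 and -0.30 without the block.

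**Figure D5:**
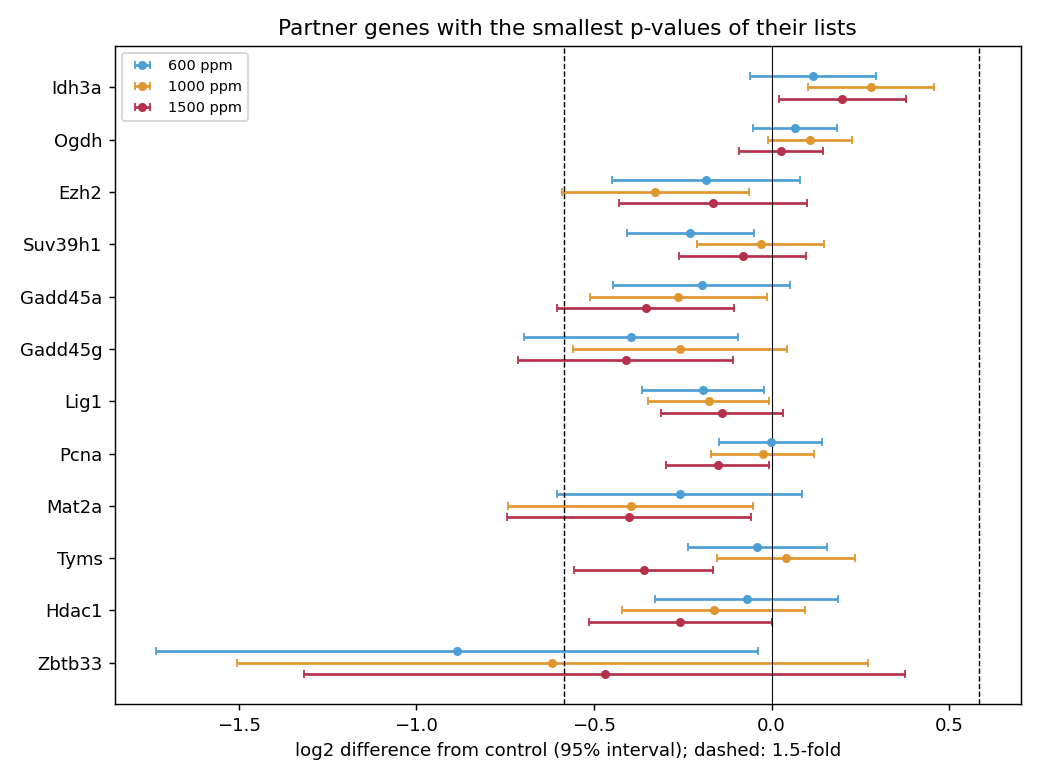
Difference from control (x axis, log2, with 95% intervals from limma) at 3 doses (colors) for the partner genes that were called or had the smallest p of their lists (y axis), with dashed lines at 1.5-fold. Zbtb33 has the widest intervals, and its probe passed the filter on dim probes only through the control group. Every other point lies inside the lines.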

How the data were processed

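The authors extracted the spots of the one-colour arrays with Agilent Feature Extraction 11.5.1.1, per the file headers, and deposited intensities (processed signals) with the background subtracted and no scaling between arrays. A further table that the authors deposited gave these intensities again, within a tolerance of 1% for 99.7% of probes or more. Without control spots there were 42877 spots of 30367 probes. Spots marked as outliers were dropped, the others were averaged by probe, and 18355 probes (60.4%) were named by accession through the RefSeq table of GRCr8. The log2 signal was taken relative to the 75th percentile of the array. Probes well above background on at least 5 of 6 arrays of a group were kept (23616), and the probe with the highest mean stood for a gene, which left 21255 genes or unnamed probes. limma 3.58.1 in R 4.3.3 was fitted on 4 dose groups, on the dose, and on 8 dose-by-sex groups, with Benjamini-Hochberg adjustment over all genes tested. The fit on 4 dose groups was tested on simulated data for the middle dose against control, without slide or sex effects. Exact permutation tests used 924 arrangements of 12 rats.

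Groups came from the sample labels, which give each rat its own number, and the array number limits the precision. Members and gene lists were chosen with earlier results of these data known. Partner genes are named where called or where among the 2 smallest p of a list, and for each tested gene the 2 genes with the highest correlation of residuals are named. Alternatives were normexp background correction (offset 50, on the median spot signal), quantile and median scaling, the deposited table, other filters, the methods' t-test, sex, slide and array weights in the fit, single probes, an adjusted threshold, and leaving out each rat. The interaction without rat 36 was added after the data were seen. 3 genes of the lists are not reported here.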

Additional observations from a re-analysis of the deposited data

How the results depend on the processing

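0 of the 3 genes were called at any dose under the 14 alternatives or in the 24 fits that left out 1 rat. The adjusted p of Dnmt3a was between 0.462 and 1 at the low dose and between 0.396 and 0.999 at the middle dose over these fits, and its difference between -0.30 and -0.13 and between -0.38 and -0.097. With quantile scaling the exact permutation test of Dnmt3a at the middle dose gave p = 0.0498 at -0.21.

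Small differences changed sign. Mbd2 at the low dose was 0.018 with normexp, 0.0036 with median scaling, 0.062 with the unscaled table, 0.052 with slide as a fixed block, 0.017 with slide as a random block and 0.038 with array weights. The unscaled table, in which the median of all genes moved by 0.070, 0.11 and -0.053, gave 0.026 for Tet3 at the low dose and 0.047 and 0.051 for Tet3 and Mbd2 at the middle dose. With slide as a fixed block Tet3 was 0.033, 0.10 and 0.23 at the 3 doses, its slope per 1000 ppm 0.15, Mbd2 at the middle dose 0.012 and Dnmt3a at the high dose 0.019. With slide as a random block Tet3 at the high dose was 0.030, and with array weights Tet3 and Mbd2 there were 0.010 and 0.030. The female minus male difference of the dose effect, with slide as a fixed block, was 0.13, 0.44 and -0.096 at the low dose for Dnmt3a, Tet3 and Mbd2, 0.73 and -0.30 at the middle dose for Tet3 and Mbd2, and 1.15 (adjusted p = 0.222 by limma) and -0.45 at the high dose. The cause was not tested. Leaving out 1 rat gave, at the low, middle and high dose, -0.25 to -0.17, -0.26 to -0.16 and -0.14 to 0.057 for Dnmt3a, -0.11 to 0.0047, -0.11 to 0.017 and -0.070 to 0.019 for Tet3, and -0.053 to 0.023, -0.10 to -0.015 and -0.071 to 0.0027 for Mbd2.

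Over all genes, 131, 348 and 260 were called at the 3 doses. The count moved by over 1.5 times with normexp (40 at the low and 95 at the high dose), with the unscaled table (569 at the middle dose), with no filter (587, 562 and 479), with the filter on all arrays (50, 225 and 151), with the methods' t-test (87 at the low dose), with slide as a fixed block (227 at the low and 405 at the high dose), with slide as a random block (140 at the high dose), with array weights (323 at the low dose) and with the adjusted threshold (0, 3 and 1). Leaving out 1 rat gave 130 to 201, 212 to 500 and 211 to 342. It moved by over 1.5 times without control rat 3 (200 at the low dose), low-dose rat 26 (201 there) and middle-dose rat 33 (212 at the middle dose). With normexp, 74 were higher and 352 lower at the middle dose, against 275 and 73. No paired analysis was possible because the rat numbers are not shared between groups. The sex difference could not be fitted with slide as a block. Signal over background limits Dnmt1, for which no change could be measured, and Zbtb33.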
